A study of Mus musculus with 80 samples.

Results

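The clustered protocadherins are cadherin-like cell-surface proteins encoded in 3 neighbouring gene clusters, Pcdha, Pcdhb and Pcdhg, on mouse chromosome 18. The members were all protein-coding genes on that chromosome whose symbols start with Pcdha, Pcdhb or Pcdhg, which gave 57 of the 21887 protein-coding genes with a position in the mm10 coordinates used here. Of these, 14 lay in Pcdha (36930285 to 37188897, 259 kb), 22 in Pcdhb (37264998 to 37521419, 256 kb) and 21 in Pcdhg (37661775 to 37841873, 180 kb).

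As background, each Pcdha and Pcdhg gene begins with its own large variable exon and promoter, and the transcripts of a cluster are then spliced to the same constant exons. Pcdhb genes consist of a single coding exon each. In neurons most members are switched on by stochastic promoter choice, so that each cell carries its own combination at its surface and recognises itself, while the C-type members Pcdhac1, Pcdhac2, Pcdhgc3, Pcdhgc4 and Pcdhgc5 follow other rules and are expressed more broadly. Promoter choice depends on CTCF and cohesin, which bring a promoter to distant enhancers, and silent promoters are held by DNA methylation, SETDB1-dependent H3K9me3 and SMCHD1.

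The series followed chemical reprogramming of mouse embryonic fibroblasts (MEFs) to induced pluripotent stem cells (iPSCs) by CUT&Tag, in which an antibody directs a transposase to a histone mark. The MEFs came from E13.5 embryos of the strain given as 129XOG2, and all stages carry the OG2 transgene. The stages were D0 (MEFs), every 2 days from D2 to D12 in a reprogramming medium that the labels do not describe further, and iPSCs grown on feeder cells in a medium with N2, B27, LIF, CHIR99021 and PD0325901. Each of the 5 marks has 2 named libraries per stage over 8 stages. The 40 deposited lists hold 1 per mark and stage, so replicate error is unknown throughout and no difference between stages was tested.

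H3K4me3 lies at active and poised promoters, H3K27ac at active promoters and enhancers, H3K27me3 at Polycomb-repressed genes and H3K9me3 in heterochromatin. H3K18la, lactylation of a histone lysine, has been linked to active genes. Lists contained 7043 to 37809 peaks, and their genome-wide background, a measure of depth solved from the peaks, was 1.31 to 4.06 fragments per position. The labels of the end stages were checked with gene-end peaks at marker genes. H3K27ac stood at 8 of 8 fibroblast markers at D0 and at 1 (Fn1) in iPSCs, against 59.3% and 34.0% of all genes. H3K4me3 stood at 8 and then 5 of them, against 62.5% and 65.9%. At pluripotency markers H3K4me3 stood at 1 of 8 at D0 (Utf1) and at 7 in iPSCs, all but Esrrb. H3K27ac stood at 1 (Pou5f1) and then 5 of these. Of 8 neuronal markers, 5 carried H3K27ac at D0 and 2 in iPSCs. H3K27ac was at 3 of 8 glial markers at D0 and 1 in iPSCs, and at 4 and then 2 of 8 endothelial and blood markers. These falls go with the fall in the share of all genes given above. Feeder chromatin in the iPSC lists was not tested.

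A gene counted as marked when a peak touched a window of 2.5 kb either side of either gene end. Members of Pcdha and Pcdhg share their far ends (within 1240 bp and 10 bp), so 1 peak there marks nearly a whole cluster. Counts at the variable-exon end alone, called the start below, are therefore given throughout. The gene table has no strand. The end with the lower coordinate was taken as the start, because the variable exons lie there in Pcdha and Pcdhg, and the same orientation was assumed for Pcdhb. Neighbouring windows can also share a peak, and variable exons are near copies of each other, so the members are not independent, and the placement of reads from near-identical stretches can decide which member holds a peak. Percentages of all genes are given beside the counts. They refer to 21887 genes for either end and to 17492 genes with a listed transcript start, none of them a member, for the start.

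**Figure D1:**
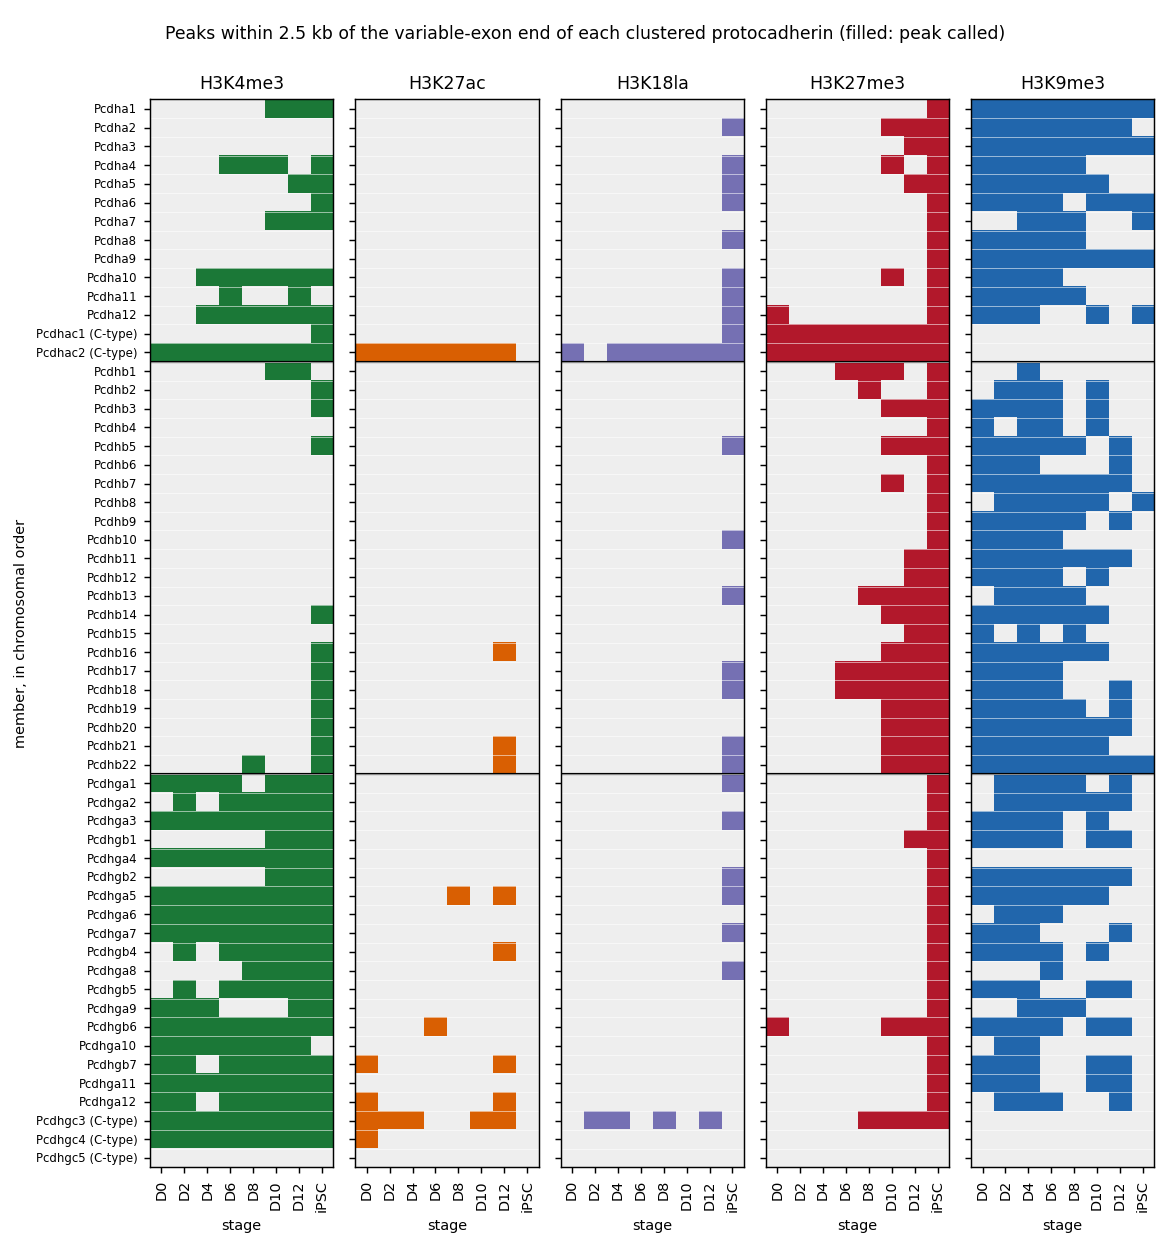
Peaks at the start of each of the 57 members (rows, in chromosomal order, with black lines between Pcdha, Pcdhb and Pcdhg) in the 8 stages (columns) for 5 marks. A filled cell is a peak within 2.5 kb of the start. H3K9me3 fills most alternate members early, H3K27me3 fills 55 of 57 in iPSCs, and the 5 C-type members hold no H3K9me3 at any stage.

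In MEFs the alternate members, those that are not C-type, were mostly marked by H3K9me3. At D0 an H3K9me3 peak lay at the start of 39 of 57 members (68.4%, exact 95% CI 54.8 to 80.1), against 1.92% of genes at a transcript start and 3.49% at either end. It marked 18 of 22 Pcdhb members, 11 of 14 Pcdha members and 10 of 21 Pcdhg members. The exact intervals here and below cover counting error only. The median fold enrichment at the marked starts was 3.87, close to the median of 4.0 of the whole list, so these peaks were of ordinary height. By cluster the median was 4.47 in Pcdha, 4.15 in Pcdhb and 2.78 in Pcdhg.

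The H3K9me3 course was broad and early. The number of marked members was 39, 45, 50, 42, 27, 29, 24 and 8, in stage order from D0 to iPSC. The share of transcript starts was 1.92%, 2.18%, 2.93%, 1.25%, 0.846%, 1.38%, 1.0% and 3.38%, and of genes at either end 3.49%, 3.77%, 5.28%, 2.27%, 1.51%, 2.39%, 1.81% and 4.56%. The members therefore exceeded the share of all genes in every list, by least in iPSCs. At D4, where 2.93% of transcript starts were marked, all 22 Pcdhb members had a peak, with 12 of 14 in Pcdha and 16 of 21 in Pcdhg. At D12 the share of transcript starts was 1.0% and 9 Pcdhb, 5 Pcdha and 10 Pcdhg members were marked. In iPSCs it was 3.38%, and 8 members were marked (14.0%, 6.26 to 25.8), 6 in Pcdha, 2 in Pcdhb and none in Pcdhg. From D0 to iPSC, 33 members had a peak at D0 alone, 2 in iPSCs alone and 6 in both. A peak at D0 alone was found at 1.33% of transcript starts and one in iPSCs alone at 2.78%, so the 2 members with the latter are near the share of all genes. With every list cut to its 7591 strongest peaks, the course was 28, 35, 32, 34, 27, 17, 19 and 2. At that length 0.846% to 1.13% of transcript starts were marked.

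Members that kept H3K9me3 in all 8 lists were Pcdha1, Pcdha3, Pcdha9 and Pcdhb22. At Pcdha1 the authors' fold enrichment was 5.55, 4.59, 4.85, 6.14, 5.14, 4.13, 4.76 and 5.86 in stage order. At Pcdha9 it was 3.87, 6.1, 5.57, 4.51, 5.54, 5.5, 3.96 and 6.96. Heights set side by side between lists depend on each list's own background, so these show that the peaks were called throughout and not how the mark changed. Pcdha6 and Pcdha12 carried the mark at both end stages with gaps between, and Pcdha7 and Pcdhb8 had it in iPSCs without a peak at D0. In iPSCs the peak of Pcdhb8 had a fold enrichment of 7.64, the highest at any member there.

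H3K27me3 had nearly the reverse course. At D0 it marked 4 of 57 members (7.02%, 1.95 to 17.0) against 22.7% of transcript starts and 25.9% of genes at either end, a smaller share than that of all genes. The 4 were Pcdha12, the C-type members Pcdhac1 and Pcdhac2, and Pcdhgb6. In iPSCs it marked 55 of 57 (96.5%, 87.9 to 99.6), against 21.7% of transcript starts. That was 14 of 14 Pcdha, 22 of 22 Pcdhb and 19 of 21 Pcdhg members. All 4 members marked at D0 were marked in iPSCs and 51 were marked in iPSCs alone, a pattern found at 7.26% of transcript starts. Pcdhgc4 and Pcdhgc5 had no H3K27me3 peak in any of the 8 lists.

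Between these ends the clusters differed in timing. Marked starts numbered 4, 2, 2, 5, 8, 20, 22 and 55 in stage order. Pcdhb had 0, 0, 0, 3, 5, 13, 14 and 22 members. Pcdha had 3, 2, 2, 2, 2, 5, 5 and 14, and Pcdhg 1, 0, 0, 0, 1, 2, 3 and 19. The share of transcript starts was 22.7%, 15.7%, 19.1%, 10.8%, 15.0%, 18.5%, 12.2% and 21.7%, and of genes at either end 25.9%, 18.7%, 21.3%, 12.4%, 17.7%, 21.8%, 14.6% and 24.6%. At the start the members thus lay below the share of transcript starts up to D8 and above it from D10. At D2 a peak at the shared far end of Pcdha raised the either-end count to 13 (22.8%), above the 18.7% of genes. The start count of 2 leaves this peak out. With every list cut to its 7574 strongest peaks, the marked starts were 3, 2, 2, 5, 5, 17, 20 and 53. At that length 10.4% to 14.8% of transcript starts were marked.

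The first alternate Pcdhb members with H3K27me3 were Pcdhb1, Pcdhb17 and Pcdhb18 at D6, the last 2 through 1 peak between them. Pcdhb2 and Pcdhb13 followed at D8, 9 members at D10 and 3 at D12 (Pcdhb11, Pcdhb12 and Pcdhb15). Pcdhb4, Pcdhb6, Pcdhb8, Pcdhb9 and Pcdhb10, which are neighbours apart from Pcdhb5 and Pcdhb7, were first marked in iPSCs. Pcdhb17 had a fold enrichment of 4.27, 3.79, 5.95, 3.98 and 5.39 in the 5 lists from D6 to iPSC. In Pcdha, beyond the 3 members marked at D0, a peak was first found at Pcdha2, Pcdha4 and Pcdha10 at D10, then at Pcdha3 and Pcdha5 at D12. Pcdha4 and Pcdha10 had no peak at D12, so a first stage does not mark the beginning of unbroken calls. In Pcdhg 16 members were first marked in iPSCs. The others were Pcdhgb6 at D0, Pcdhgc3 at D8 and Pcdhgb1 at D12.

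The iPSC peaks at member starts had a median fold enrichment of 4.31 (range 2.63 to 7.34) against 3.88 for the whole list, and a median width of 894 bp against 485 bp. The highest were Pcdhb14 at 7.34, Pcdhb9 at 7.14 and Pcdhb5 at 6.49. In Pcdha, Pcdha5 had 5.41, Pcdha7 5.35 and Pcdha9 5.34, and in Pcdhg the leading member was Pcdhgc3 at 5.85. Cluster medians were 4.96 in Pcdhb, 4.45 in Pcdha and 3.03 in Pcdhg. The caller's local background under the iPSC cluster peaks was 5.16 times the genome-wide background, the highest ratio for cluster peaks of any list, against 2.77 for all peaks of that list. These fold enrichments are relative to that local background.

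**Figure D2:**
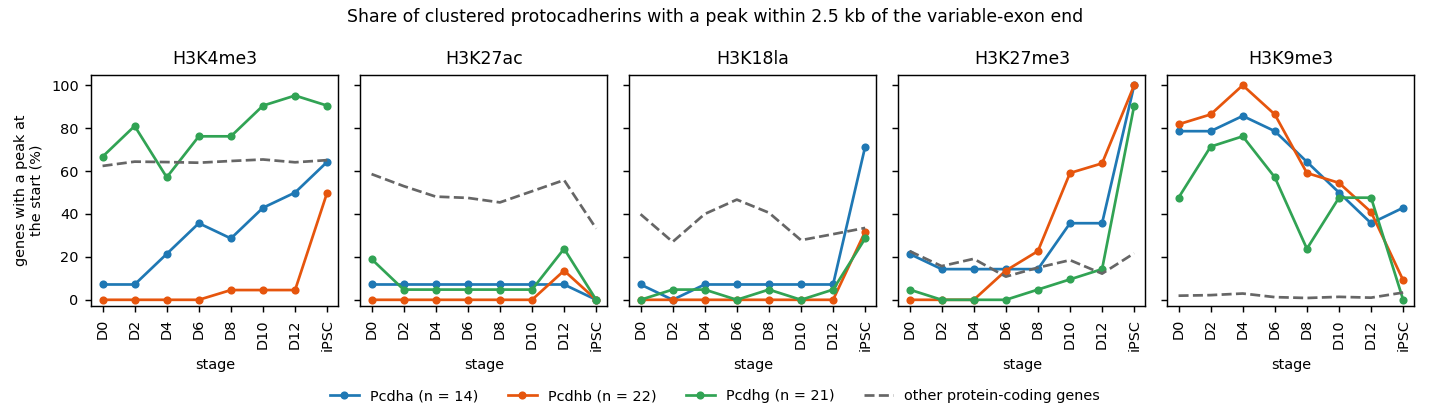
Percentage of members of each cluster with a peak within 2.5 kb of the start, by stage and mark, beside the percentage of protein-coding genes with a peak within 2.5 kb of a transcript start (dashed). H3K9me3 lies far above the dashed line early in all clusters, and H3K27me3 is above it in Pcdhb from D6 on, where Pcdha (2 of 14 members) is also above it, and reaches 90.5% to 100.0% in iPSCs.

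All members with H3K9me3 at D0 carried H3K27me3 in iPSCs, but so did all others except Pcdhgc4 and Pcdhgc5. Which members carried 1 mark and later the other therefore follows largely from the separate counts, and a link between the marks was not tested. Counting only H3K9me3 and H3K27me3, 32 of 57 members (56.1%) had the first alone at D0 and the second alone in iPSCs, 17 in Pcdhb, 9 in Pcdhg and 6 in Pcdha. That pattern was found at 0.223% of transcript starts. Both marks stood together at 2 members at D0 (0.383% of transcript starts), 9 at D10 (0.263%), 10 at D12 (0.206%) and, finally, 8 in iPSCs (0.852%). Those of D10 and D12 were mostly in Pcdhb, with 7 and 6 members. Among 51 members that carried each mark at some stage, the last H3K9me3 list came before the first H3K27me3 list in 27, at the same stage in 13 and after it in 11. In Pcdhg 15 of 17 had the marks in sequence, while in Pcdhb the split was 7, 8 and 7. The Pcdhg order follows largely from the separate counts. There 16 members were first marked by H3K27me3 in iPSCs, where no Pcdhg member held H3K9me3. The share of all genes with each order is not given here, and a difference in order between clusters was not tested. A list of a cell population cannot tell whether both marks lay on the same chromosome.

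Both marks also occupied the same place within the gene. H3K9me3 summits at D0 lay a median of 1914 bp above the nearest start (quartiles 1770 to 2038), and 36 of 46 (78.3%) were more than 500 and up to 2500 bp above it, inside or near the end of the variable exon, while 1 lay within 500 bp. H3K27me3 summits in iPSCs had a median of 1891 bp, with 51 of 69 (73.9%) in the same interval. Of the 46 H3K9me3 peaks in the clusters at D0, 37 (80.4%) overlapped an H3K27me3 peak of iPSCs by at least 1 bp, which is 53.6% of the 69 H3K27me3 peaks. Over all chromosomes the shares were 7.13% and 7.91%. The 4 H3K27me3 peaks of D0 were placed differently, 3 of them within 500 bp of a start. At a start window of 1.0 kb most peaks of either mark fall outside, and the count then was 29 members for H3K27me3 in iPSCs and 7 for H3K9me3 at D0. The share of all genes at 1.0 kb is not given here, so these counts cannot be set against it.

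**Figure D3:**
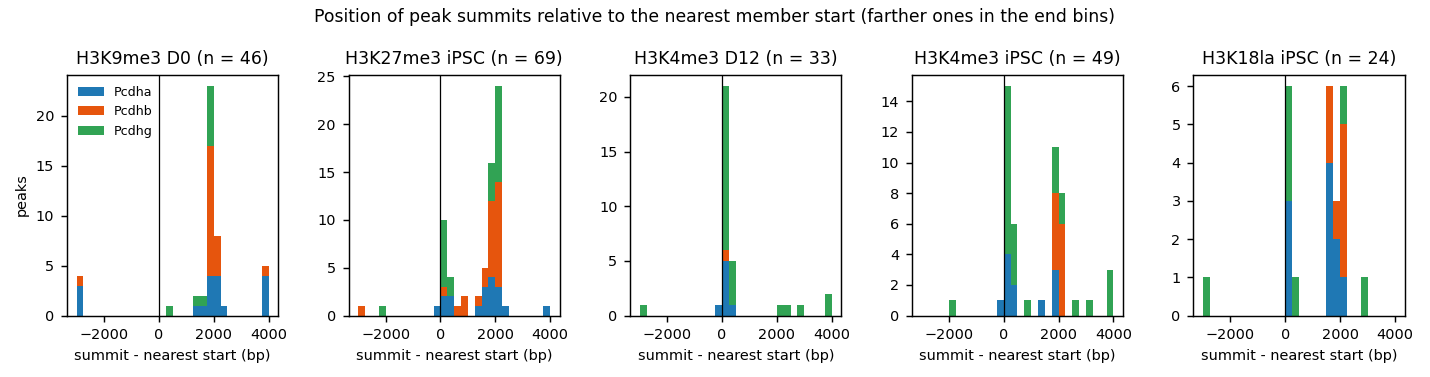
Distance of peak summits from the nearest member start, in bins of base pairs, stacked by cluster, for H3K9me3 at D0, H3K27me3 in iPSCs, H3K4me3 at D12 and in iPSCs, and H3K18la in iPSCs. H3K9me3 and H3K27me3 pile up near 1900 bp above the start, H3K4me3 at D12 lies at the start, and H3K4me3 and H3K18la in iPSCs show both positions.

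H3K4me3 separated the clusters from the outset. At D0 it lay at the start of 15 of 57 members (26.3%, 15.5 to 39.7), against 62.4% of transcript starts. Of these, 14 were in Pcdhg, 1 was Pcdhac2 in Pcdha, and none was in Pcdhb. At either end the D0 count was 22, against 62.5% of genes, because a peak at the shared far end of Pcdhg, beside Diaph1, marked all 21 Pcdhg members in every list. The start counts were 15, 18, 15, 21, 21, 26, 28 and 39 in stage order. Pcdha had 1, 1, 3, 5, 4, 6, 7 and 9, Pcdhb 0 up to D6, then 1, 1, 1 and 11, and Pcdhg 14, 17, 12, 16, 16, 19, 20 and 19. The share of transcript starts was 62.4%, 64.4%, 64.2%, 63.9%, 64.7%, 65.4%, 64.1% and 65.1%, and of genes at either end 62.5%, 64.8%, 64.6%, 64.3%, 65.1%, 66.1%, 64.8% and 65.9%. The iPSC count of 39 of 57 (68.4%) was thus close to the share of all genes, and all earlier counts were below it. Members with H3K4me3 in iPSCs and not at D0 numbered 25, a pattern at 4.79% of transcript starts, and Pcdhga10 had it at D0 and not in iPSCs.

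The increase in iPSCs depends on the length of the list. With every H3K4me3 list cut to its 18944 strongest peaks, 15 starts were marked at D0, 17 at D12 and 15 in iPSCs. Of transcript starts, 62.4%, 61.3% and 55.9% were then marked. The iPSC count was thus no longer close to the share of all genes but below it. At either end the equal-length counts were 22 at D0 and 15 in iPSCs, the reverse direction.

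The position of the H3K4me3 peaks within the gene differed in iPSCs. Members with a summit within 500 bp of the start numbered 13 at D0, 27 at D12 and 22 in iPSCs, and in Pcdhb 0, 1 and 0. Members with a summit more than 500 and up to 2500 bp above it numbered 1 at D0, 2 at D12 and 21 in iPSCs. All 11 Pcdhb peaks of iPSCs lay in that upper interval, with a median of 2000 bp. Of the 21 iPSC peaks placed there in the clusters, 20 (95.2%) overlapped an H3K27me3 peak of the same stage, against 13 of 22 (59.1%) at the start. Whether signal was shared between the assays of different marks was not tested. At equal list length the counts near the start were 13, 16 and 8 at D0, D12 and iPSC, and above it 1, 1 and 4.

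Before the iPSC stage, the H3K4me3 of alternate Pcdha members appeared at Pcdha10 and Pcdha12 from D4, Pcdha4 and Pcdha11 at D6, Pcdha1 and Pcdha7 at D10, and Pcdha5 at D12. At D12 all 7 marked Pcdha members, Pcdhac2 included, had their summit within 500 bp of the start. Pcdha1 had a fold enrichment of 4.65 at D10, 6.37 at D12 and 5.68 in iPSCs, while it kept H3K9me3 throughout. At D0, 6 members carried both H3K4me3 and H3K9me3 (0.732% of transcript starts). None of the 46 H3K9me3 peaks in the clusters overlapped any of the 17 H3K4me3 peaks at D0, and over all chromosomes such overlap was also rare (1.42% and 1.31% of each list). Pcdhgb6 had an H3K4me3 summit 103 bp and an H3K9me3 summit 1764 bp above the start at D0. Its H3K4me3 fold enrichment was 7.18, 8.64, 7.81, 9.84, 11.2, 7.67, 9.88 and 4.58 in stage order, the last from a peak 1890 bp above the start. Pcdhga4 was the only alternate member without H3K9me3 in any list, and it carried H3K4me3 in all 8.

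In iPSCs the leading H3K4me3 peaks were at Pcdha6 (9.1), Pcdhb17 (8.69, a peak that also touches the window of Pcdhb18), Pcdhb5 (8.12) and Pcdhga7 (8.06). H3K4me3 and H3K27me3 stood together at the start of 38 of 57 members in iPSCs, against 18.5% of transcript starts, compared with 2 at D0 (17.1%) and 5 at D12 (9.72%). They were 18 in Pcdhg, 11 in Pcdhb and 9 in Pcdha. With 39 starts marked by H3K4me3 and 55 by H3K27me3 in iPSCs, the joint count follows largely from the separate ones. It also depends on list length, since only 15 starts held H3K4me3 in iPSCs at equal length. Of 49 H3K4me3 peaks in the clusters, 34 (69.4%) overlapped an H3K27me3 peak, and of 69 H3K27me3 peaks 49.3% did the reverse, against 19.6% and 45.6% over all chromosomes.

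**Figure D4:**
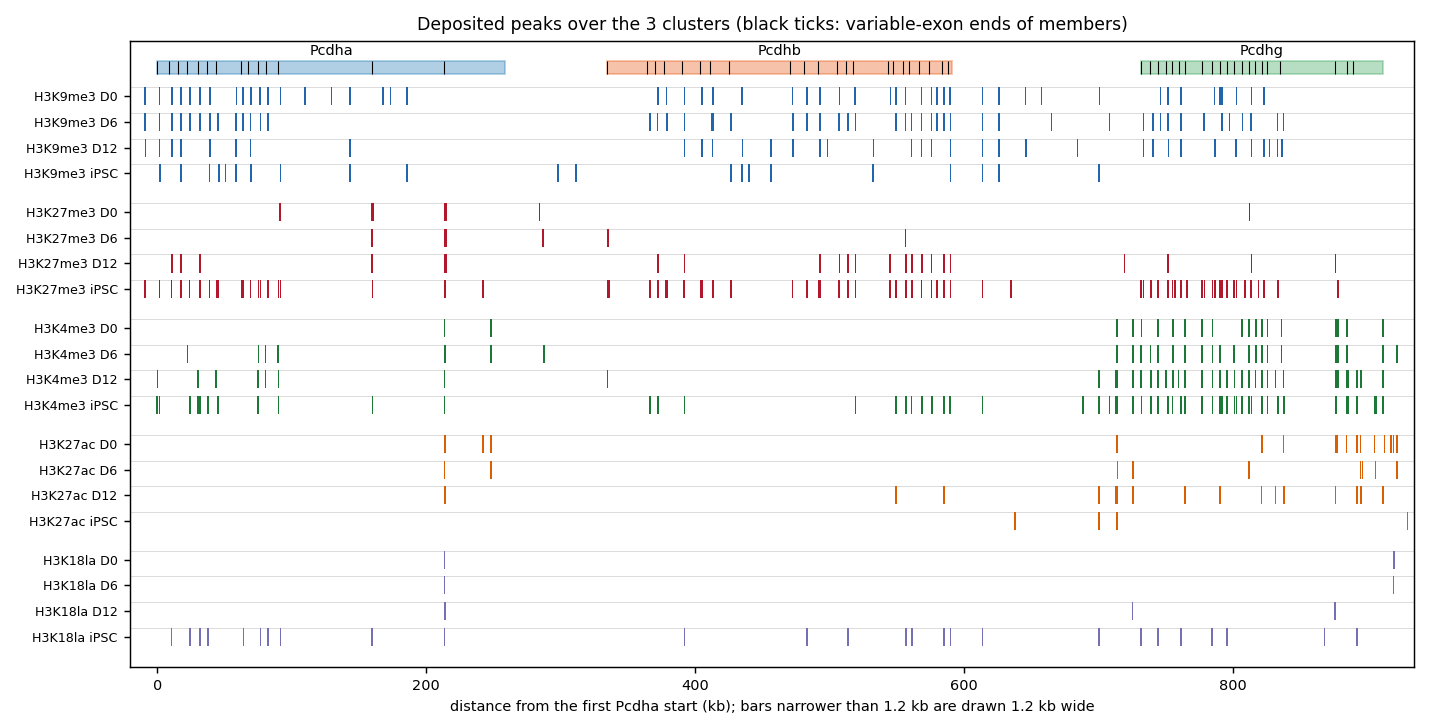
Deposited peaks along the 3 clusters at D0, D6, D12 and iPSC, by kb from the first Pcdha start. Each bar is a peak and black ticks are member starts. H3K27me3 in iPSCs recurs along all 3 clusters and H3K9me3 at D0 mainly along Pcdha and Pcdhb, with 10 of 21 Pcdhg starts marked. H3K27ac and H3K18la are nearly absent from the Pcdha and Pcdhb exons before iPSC, and in iPSCs only H3K18la appears there.

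Active marks were scarce over the members. H3K27ac lay at the start of 5 of 57 members at D0 (8.77%, 2.91 to 19.3), against 58.6% of transcript starts. They were Pcdhac2, Pcdhgb7, Pcdhga12, Pcdhgc3 and Pcdhgc4. The start count was 2 at each stage from D2 to D10, 9 at D12 (against 55.8%) and 0 in iPSCs (against 33.2%). A count of 0 of 57 leaves an exact upper limit of 6.27%. The D12 members were Pcdhac2, Pcdhb16, Pcdhb21, Pcdhb22, Pcdhga5, Pcdhgb4, Pcdhgb7, Pcdhga12 and Pcdhgc3. At Pcdhb16 the D12 peak had a fold enrichment of 7.03 and lay 2056 bp above the start. At either end the counts were 22, 2, 22, 2, 2, 22, 25 and 0, where the 4 high values include the shared far end of Pcdhg, against 59.3%, 53.1%, 48.2%, 47.9%, 45.5%, 51.2%, 56.8% and 34.0% of genes. At transcript starts the share from D2 to D10 was 53.0%, 48.1%, 47.5%, 45.4% and 50.6%.

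H3K18la was nearly restricted to C-type members until the last stage. Its start count was 1, 1, 2, 1, 2, 1 and 2 from D0 to D12, all of them Pcdhac2 or Pcdhgc3, against 39.9% of transcript starts at D0 and 40.0%, 46.7%, 40.6%, 27.8% and 30.6% from D4 to D12. At either end the shares of all genes, iPSC included, were 40.1%, 26.9%, 39.7%, 47.3%, 41.1%, 27.9%, 30.8% and 34.6%. In iPSCs it was 23 of 57 (40.4%, 27.6 to 54.2), against 33.5% of transcript starts, with 10 in Pcdha, 7 in Pcdhb and 6 in Pcdhg. Of these 22 had no peak at D0, a pattern at 8.11% of transcript starts. The highest fold enrichments were 6.65 at Pcdhga1, 6.51 at Pcdhb18 and 6.34 at Pcdhga7. All 23 members also carried H3K27me3, which marked 55 of all 57 in iPSCs. Of the 23, 18 carried H3K4me3, which marked 39 of all 57. Of 24 H3K18la peaks in the clusters, 21 (87.5%) overlapped an H3K27me3 peak against 22.9% over all chromosomes, including 15 of the 15 peaks with a summit more than 500 and up to 2500 bp above a start. With lists cut to 7009 peaks the counts were 1 at D0 and 7 in iPSCs, against 27.8% and 21.7% of transcript starts. At that length the iPSC count lay below the share of all genes, not above it. With a −log10 p-value of at least 10 the counts were 1 and 9, and the share of all genes at that cut is not given here.

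The C-type members differed from most alternate members in H3K9me3, and from each other in the remaining marks. None of the 5 had H3K9me3 in any list, which among alternate members held for Pcdhga4 alone. H3K4me3 in all 8 lists was found at 10 members and was not particular to the C-type. The alternate ones were Pcdhga3, Pcdhga4, Pcdhga5, Pcdhga6, Pcdhga7, Pcdhgb6 and Pcdhga11. Pcdhac2, the last variable exon of Pcdha, carried H3K4me3 and H3K27me3 in all 8 lists, H3K27ac in 7 (all but iPSC) and H3K18la in 7 (all but D2). Its H3K4me3 fold enrichment was 8.73, 9.26, 8.45, 9.74, 9.57, 8.24, 8.77 and 7.39 in stage order, between the percentiles 72.3 and 82.2 of its lists. Its H3K27me3 values were 3.81, 4.01, 3.1, 3.29, 3.09, 4.58, 3.97 and 3.46. Its H3K27ac values were 5.25, 5.55, 5.76, 5.82, 4.28, 3.57 and 4.54 up to D12.

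Pcdhac1, beside it, carried H3K27me3 in all 8 lists at 5.8, 5.74, 5.77, 4.37, 4.9, 5.66, 5.33 and 4.7, had H3K4me3 (6.43) and H3K18la (4.92) in iPSCs alone, and had no H3K27ac. Pcdhgc3 carried H3K4me3 in all 8 lists at 5.09, 5.34, 4.95, 5.64, 6.88, 8.37, 9.01 and 6.29, and H3K27ac at D0, D2, D4, D10 and D12. Its H3K27me3 began at D8 with 5.01, followed by 3.78, 5.28 and 5.85. Pcdhgc4 carried H3K4me3 in all 8 lists (3.63 to 5.47) with H3K27ac at D0 alone. Pcdhgc5 had no peak of any mark at its start in the 40 lists, and its calls at either end came from the far end that Pcdhg shares.

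Over the whole length of the 3 clusters, H3K27me3 peaks covered 0.684% at D0, 0.556% (D6), 2.07% (D10), 1.76% (D12) and finally 7.96% in iPSCs, where 69 peaks held 55310 bp. Over all chromosomes the coverage was 0.619% at D0 and 0.35% in iPSCs, and in the rest of chromosome 18 it was 0.478% and 0.327%. By cluster the iPSC value was 8.62% in Pcdhb, 7.82% in Pcdhg and 7.39% in Pcdha. It was concentrated on the alternate exons, with 16.6% in those of Pcdha and 12.8% in those of Pcdhg, against 2.26% and 0.694% in the remainder with the C-type and constant exons. The gaps between the clusters had 0.268% and 0.741%, and the 500 kb on each side 0.572% and 0.775%. H3K9me3 covered 4.28% at D0, 6.07% at D4 and 1.15% in iPSCs, while the rest of chromosome 18 had 0.36% at D0 and 0.38% in iPSCs. H3K4me3 covered 2.16% at D0 and 4.34% in iPSCs (all chromosomes 0.953% and 1.14%), but 2.16% and 1.63% with lists of equal length. H3K27ac covered 1.11% and 0.0% (all chromosomes 1.08% and 0.449%). H3K18la covered 0.0515% and 1.86% (all chromosomes 0.309% and 0.283%).

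Some marked regions in and beside the clusters lay away from all member starts. The region chr18:37177949-37179006, between the Pcdhac2 start and the far end of Pcdha, carried H3K4me3 from D0 to D10 (3.96 to 10.9) and H3K27ac at D0, D2 and D6, and neither at D12 or in iPSCs. The region chr18:37217479-37218339, 28.6 kb past the end of Pcdha, carried H3K4me3 at D4, D6, D8 and D10 alone (4.15 to 10.5). Another region, chr18:37655301-37656479, 5.3 kb before the first Pcdhg start, carried H3K4me3 in all 8 lists (5.46 to 13.1) and H3K27ac from D6 to D12. In the gap before Pcdhg, chr18:37543617-37544280 carried H3K9me3 in 6 lists and, in iPSCs, H3K4me3 (12.9), H3K18la (4.65) and H3K27me3 (6.33). No annotated enhancer was matched to these regions here.

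The genes around the clusters were counted in the same way, at either end. Among 30 other protein-coding genes within 500 kb, H3K9me3 marked none at D0, D12 or in iPSCs, and its calls were those of Slc25a2 and Taf7, which share peaks at D4, D6 and D10. H3K27me3 marked 6 at D0 and 5 in iPSCs, against 25.9% and 24.6% of all genes. H3K4me3 marked 24 and 28 (62.5% and 65.9% of all genes), H3K27ac 24 and 12 (59.3% and 34.0%), and H3K18la 16 and 10 (40.1% and 34.6%). Taf7, an intronless gene in the gap before Pcdhg, held H3K4me3 and H3K27ac in all 8 lists.

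Related adhesion genes elsewhere served for comparison, counted at either end. At D0 and in iPSCs, H3K4me3 marked 62.5% and 65.9% of all genes in this way, and H3K27ac 59.3% and 34.0%. H3K18la marked 40.1% and 34.6%, H3K27me3 25.9% and 24.6%, and H3K9me3 3.49% and 4.56%. Several of the counts below lie near these shares. Of 18 non-clustered protocadherins and their relatives, H3K27me3 marked 11 at D0 and 16 in iPSCs, H3K9me3 2 (Celsr1 and Celsr2) and then 0, H3K4me3 16 and 15, H3K27ac 10 and 4, and H3K18la 7 and 3. Of 16 classical cadherins, H3K27me3 marked 8 and 9, H3K9me3 0 and 3, H3K4me3 10 and 9, H3K27ac 5 and 4, and H3K18la 6 and 4. Of 20 genes of the machinery that controls the clusters, H3K4me3 marked 16 at D0 and 17 in iPSCs, among them Ctcf, the cohesin genes Rad21, Smc1a and Smc3, and Smchd1. H3K27ac marked 16 of them at D0 and 10 in iPSCs, H3K18la 11 and 8, H3K27me3 4 (Wapl, Setdb1, Wiz and Dnmt3b) and 1 (Setdb1), and H3K9me3 none at either stage. Dnmt3b, a methyltransferase that acts at these promoters, had H3K27me3 at D0 and none at D12 or in iPSCs. Of 16 intracellular partners, such as the kinases Ptk2 and Ptk2b, H3K4me3 marked 14 and 15, H3K27ac 13 and 8, H3K18la 11 and 12, H3K27me3 6 and 7, and H3K9me3 0 and 1.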

How the data were processed

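The data are CUT&Tag peak lists, 1 per mark and stage. Per the submitters' processing notes, the tools were MACS2 2.1.2, Bowtie2 2.2.5, fastp 0.20.1 and deepTools 3.4.3, with the build mm10. Pooling and controls are not described in the labels or headers. One list (H3K18la, D2) names its peaks after a single library and may represent it alone. The authors deposited for each peak a fold enrichment (ratio of pileup to local background), a −log10 p-value and a score, 10 times the −log10 p-value cut to a whole number.

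Of 713652 peaks, the 710560 on the autosomes and sex chromosomes were kept. Depth was solved from each peak's fold enrichment and p-value under a Poisson model, within 0.01, for 96.2% to 99.94% of the peaks of a list. The step was tested on data simulated under the same model, where 100.0% of 3000 pileups were recovered exactly. That checks the solving of the equations alone. The model itself and the genome-wide background taken from the solved peaks were not tested. Gene positions came from RefSeq (GRCm38.p6, which shares its chromosome coordinates with mm10). Pcdhgb8, a pseudogene, and 3 gene models that span Pcdha to Pcdhg are not members. Peaks overlapped with 1 bp in common. Intervals are exact Clopper-Pearson at 95%. Members named were the C-type members and a selection of 2 kinds of others. These were members marked at D0 or in every list from their first stage on, and those among the 3 highest fold enrichments per cluster and mark in iPSCs. Not every member that meets these terms is named. Others were named after their values were seen. The members, lists and named genes were chosen with earlier results of these data known. Analyses used Python 3.11.15, pandas 2.3.3, numpy 2.4.6 and scipy 1.17.1. Alternatives were other windows and gene ends, a −log10 p-value of at least 10, lists of equal length and another overlap rule.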

Additional observations from a re-analysis of the deposited data

How the results depend on the processing

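Results are net differences, iPSC less D0, in marked members (either end) or in the percentage of the clusters covered. With 1 list per mark and stage, no library could be left out. No paired analysis was possible because the 2 libraries of a mark and stage are represented by 1 list. Of 60 alternative values, 36 stayed within 1.5 times the main one, 22 moved further and 2 reversed. The alternatives at the start alone with fewer peaks, the nearest-start assignment and the equal-length counts by summit position were chosen after seeing the data.

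H3K27me3 (51 members) moved to 26 at 1.0 kb and 27 over the whole gene. H3K9me3 (−31) moved to −5 at 1.0 kb. H3K4me3 (19) moved to 9 at 1.0 kb, 11 over the whole gene and 6 with stricter peaks, and reversed to −7 at equal list length. At the start alone and equal length it was 0, with 15 members at both stages. The iPSC count at either end was then also 15, so no member was marked through the shared far end alone. Its coverage (2.18) moved to 1.06 with stricter peaks and reversed to −0.532 at equal length. H3K27ac (−22) moved to −5 at the start alone and with the nearest start, −35 over the whole gene, −1 at equal length, −3 at the start with stricter peaks and −1 at the start with equal length. Its coverage (−1.11) moved to −0.381 at equal length. H3K18la (22) moved to 10 at 1.0 kb, 8 with stricter peaks and 6 at equal length, and to 8 and 6 with the start alone. Its coverage (1.81) moved to 0.753 and 0.596. The causes were not tested. Peaks of low height can be missed in the shallower lists.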
